A study of Rattus norvegicus with 9 samples.

Results

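The genes of 5 secreted acute phase proteins and 2 C/EBP transcription factors were followed in cultured synovial fibroblasts of the rat, which build and maintain the lining of joints: Lcn2, Slpi, Ptx3, Hp, Cp, Cebpb and Cebpd. The members were chosen by gene symbol, and all 7 were found among the 17298 genes of the deposited table. Messenger RNA was sequenced from wild-type cells in 3 groups of 3 libraries. Synovial fibroblasts of the co-culture group were stimulated with the inflammatory cytokine IL-1β and grown below dermal fibroblasts in a transwell, a dish in which a porous membrane holds both cell types apart. The IL-1β group received IL-1β in normal culture, and the control group was kept in normal culture without IL-1β. Per the labels' protocols, cells were freed from synovium and skin by enzyme digestion, and messenger RNA was selected by its polyA tail. The labels used here give no dose or duration of IL-1β, no age or sex of the animals, no group with co-culture but without IL-1β, and no word on an empty insert. They do not say either whether the 3 libraries of a group stand for different animals or cultures, so p-values reflect library-to-library spread that could be technical. Effects of dermal fibroblasts and of the insert itself cannot be told apart.

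Acute phase proteins are plasma and tissue proteins whose synthesis changes in inflammation, best known from the liver under IL-6 and IL-1, but also made locally by stromal cells. C/EBP beta and delta are basic leucine zipper transcription factors that bind their sites as dimers and were first studied as regulators of acute phase and IL-6 genes; C/EBP beta is also called NF-IL6. In joint tissue, fibroblasts stimulated with IL-1 are known to secrete such proteins together with chemokines and proteases.

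Levels are given as FPKM, fragments per kilobase of transcript scaled to the number of mapped fragments, as deposited by the authors. Genes with a mean of at least 1 FPKM over the 9 libraries (11372 genes, all 7 members included) were tested with limma on log2(FPKM + 1), and a gene was called changed at a Benjamini-Hochberg adjusted p under 0.05 over all of them. Log2 differences carry the standard error of the fit. FPKM sums were 679774 to 741810 per library, and the depth in reads is unknown. Rank correlations across genes were 0.9946 to 0.9959 within groups and 0.9584 to 0.9912 between groups, so each library was closer to its own group than to any other. The 3 contrasts share libraries with each other and are not independent.

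The libraries carried the profile of fibroblasts. The 12 fibroblast markers, collagen and proteoglycan genes among them, summed to 20030 to 20940 FPKM in co-culture, 18990 to 19650 FPKM with IL-1β and 22340 to 22810 FPKM in control. Single markers moved within these sums: 5 were higher and 6 lower with IL-1β than in control (20.5% and 31.2% of all genes). Of the hepatocyte markers, 8 of 12 were listed in the table, each under 1 FPKM in every library, and they summed to 0.25 to 0.46, 0.25 to 0.42 and 0.34 to 0.48 FPKM in co-culture, IL-1β and control libraries. The 7 endothelial markers were likewise each under 1 FPKM. Of the neutrophil markers, 9 of 13 were listed, and their sum was 2.3 to 3.21 FPKM in co-culture, 15.1 to 22.7 FPKM with IL-1β and 1.88 to 3.04 FPKM in control. This sum moved with the members and was carried by Camp and S100a8, while the granule protease and peroxidase genes that define neutrophils, Elane, Prtn3 and Mpo, were under 1 FPKM in all 9 libraries. Of the macrophage and leukocyte markers, 10 of 12 were listed, with sums of 27.5 to 29.5, 37 to 41.6 and 26.9 to 29.1 FPKM in co-culture, IL-1β and control. Of the 3 that were tested, Cd14 and Cd68 moved like most members between IL-1β and the other groups. Cd14 was at 15.9 ± 0.304 FPKM in co-culture, 22.7 ± 0.821 FPKM with IL-1β and 13.5 ± 0.585 FPKM in control (limma adjusted p = 7.71e-08 for IL-1β against control and 3.16e-06 for co-culture against IL-1β). Cd68 was at 2.19 ± 0.439, 4.77 ± 0.88 and 2.3 ± 0.454 FPKM (limma adjusted p = 0.000537 and 0.000408). Lyz2 was at 7.76 ± 0.761, 7.99 ± 0.398 and 10.7 ± 0.899 FPKM, lower with IL-1β than in control (adjusted p = 0.00131). Without the filter on low values, 5 markers of this list were higher and 1 lower with IL-1β than in control. Of the listed markers 5, Ptprc, Csf1r, Cd163, Itgam and Cd74, were under 1 FPKM in all 9 libraries. The part of these cell types in the results was not tested. Of the epithelial markers, 5 of 9 were listed and 4 were under 1 FPKM in every library. The other, Krt8, was at 2.04 ± 0.284, 0.643 ± 0.0924 and 3.63 ± 0.162 FPKM in co-culture, IL-1β and control. It was lower with IL-1β than in control (limma adjusted p = 3.13e-08) and higher in co-culture than with IL-1β (adjusted p = 4.8e-06). The 9 adipocyte markers summed to 554 to 579.7 FPKM in co-culture, 528.2 to 561.6 FPKM with IL-1β and 723 to 772.5 FPKM in control. Of the 7 adipocyte markers tested, 5 were lower and 1 higher with IL-1β than in control (31.2% and 20.5% of all genes). In bulk RNA, a change in fewer cells and a smaller change in each cell cannot be told apart.

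All 7 members were higher with IL-1β than in control, by amounts from 1.31-fold for Cebpd to 92.1-fold for Lcn2. In co-culture 6 of the 7 were lower than with IL-1β alone, Cebpd being the exception, and all 7 were still above control. By comparison, 20.5% of all genes tested were called higher with IL-1β than in control, 16.7% lower in co-culture than with IL-1β, and 12.4% higher in co-culture than in control; in the opposite directions the shares were 31.2%, 33.3% and 7.91%. The 5 genes of secreted proteins had a log2 difference of at least 1 between IL-1β and control, as did 2.74% of all genes. Lcn2, Slpi, Ptx3 and Hp were lower by at least 1 in co-culture than with IL-1β, as were 1.88% of all genes, and Lcn2, Slpi and Ptx3 were higher by at least 1 in co-culture than in control, as were 0.369%. Groups without overlap in these directions were found for 23.3%, 19.5% and 22.1% of all genes, and for 7, 6 and 7 members.

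**Figure D1:**
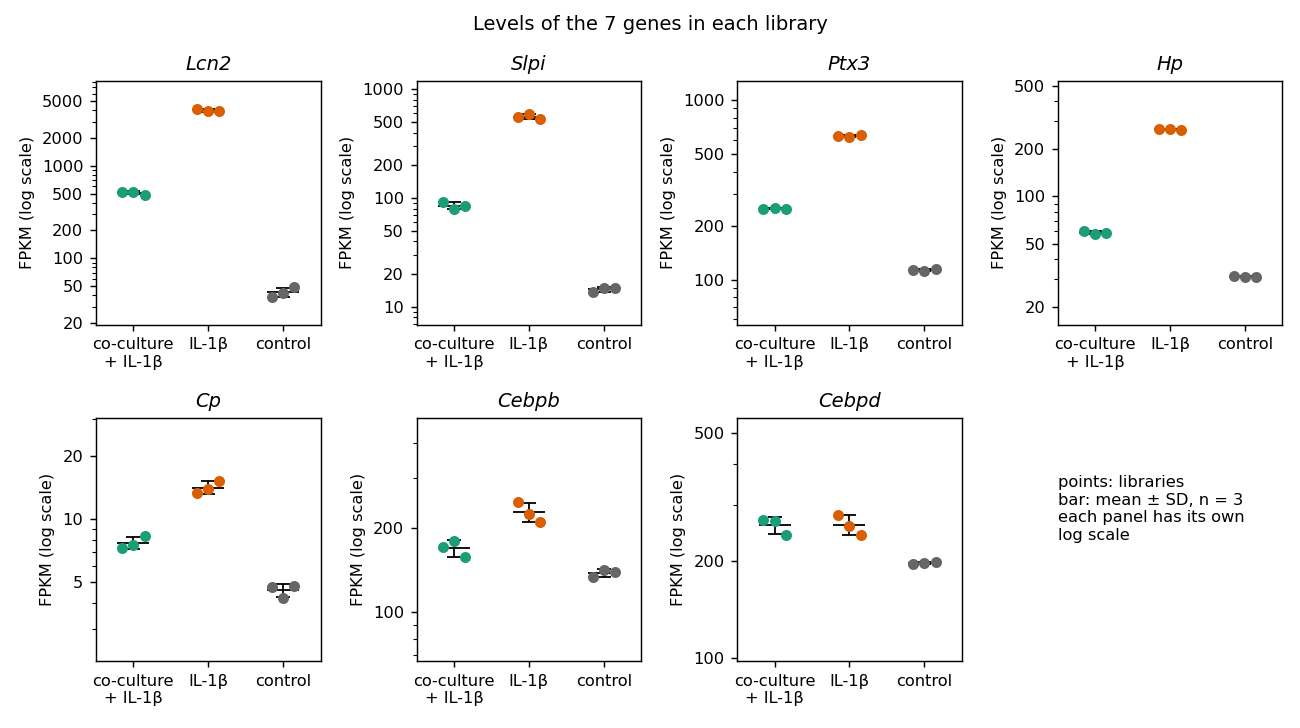
FPKM of each member in every library, with co-culture, IL-1β and control from left to right; points are libraries, and bars are the mean ± SD of 3 libraries on a log axis whose range differs between panels. The IL-1β libraries lie highest and the control libraries lowest for 6 genes, whereas the co-culture and IL-1β libraries of Cebpd overlap.

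Lcn2 encodes lipocalin 2, which binds bacterial siderophores and so withholds iron from microbes. Co-culture libraries had 525, 516 and 488 FPKM of it, against 4108, 3925 and 3854 FPKM with IL-1β and 38.3, 42.4 and 48.4 FPKM in control. The groups did not overlap in any pair. By mean FPKM the gene ranked 227th of 17298 genes in co-culture, 13th with IL-1β and 2426th in control. The difference of IL-1β from control was 6.5 ± 0.07 on the log2(FPKM + 1) scale (limma adjusted p = 2.08e-13), that of co-culture from IL-1β -2.96 ± 0.07 (adjusted p = 2.27e-10), a 7.78-fold lower mean FPKM, and that of co-culture from control 3.54 ± 0.07 (adjusted p = 2.64e-10). The last ranked 1st among the 11372 genes of that contrast on this scale, but 6th with a pseudocount of 0.1 and 2nd after scaling to equal sums or without control replicate 1 or co-culture replicate 1. By the ratio of mean FPKM the gelatinase gene Mmp9 was 28.8-fold higher in co-culture than in control, against 11.8-fold for Lcn2.

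Slpi, the secretory leukocyte protease inhibitor, blocks neutrophil elastase and cathepsin G. Its levels were 92.2, 79.5 and 84.6 FPKM in co-culture, 556, 596 and 534 FPKM with IL-1β and 13.7, 14.9 and 14.75 FPKM in control. Again no library of one group reached the range of another. Slpi was 38.9-fold higher with IL-1β than in control (log2 difference 5.19 ± 0.06, limma adjusted p = 2.04e-14) and 6.58-fold lower in co-culture than with IL-1β (-2.7 ± 0.06, adjusted p = 1.42e-11). Against control, co-culture stood 5.92-fold higher (2.48 ± 0.06, adjusted p = 1.34e-10). That placed Slpi 6th among the differences of co-culture from control, or 19th with a pseudocount of 0.1.

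Ptx3 encodes the long pentraxin PTX3, a soluble pattern recognition protein that binds the complement component C1q and takes part in building hyaluronan-rich matrix. It varied little between replicates, at 249, 249 and 246 FPKM in co-culture, 632, 622 and 639 FPKM with IL-1β and 113, 112 and 114 FPKM in control. The 3 groups were far apart relative to these spreads. The log2 differences were 2.47 ± 0.03 for IL-1β against control (limma adjusted p = 8.51e-15), -1.34 ± 0.03 for co-culture against IL-1β (adjusted p = 4.18e-12) and 1.12 ± 0.03 for co-culture against control (adjusted p = 1.27e-10).

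Hp encodes haptoglobin, which captures free haemoglobin. Its libraries had 60.3, 57.6 and 58.8 FPKM in co-culture, 267, 269 and 264 FPKM with IL-1β and 31.4, 30.8 and 31.01 FPKM in control. Hp rose more than Ptx3 with IL-1β, 8.59-fold against 5.57-fold, yet in co-culture it was only 1.9-fold above control, against 2.19-fold for Ptx3. The log2 differences of Hp were 3.06 ± 0.03 for IL-1β against control (limma adjusted p = 3.93e-15), -2.16 ± 0.03 for co-culture against IL-1β (adjusted p = 2.01e-13) and 0.9 ± 0.03 for co-culture against control (adjusted p = 1.97e-09).

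Cp encodes ceruloplasmin, a copper-carrying ferroxidase that oxidises iron for loading onto transferrin. It had the lowest level of the 7 genes in each group, at 7.31, 7.53 and 8.34 FPKM in co-culture, 13.3, 14 and 15.3 FPKM with IL-1β and 4.73, 4.2 and 4.83 FPKM in control. The groups were nonetheless separate. The log2 differences were 1.44 ± 0.07 for IL-1β against control (limma adjusted p = 6.73e-09), -0.8 ± 0.07 for co-culture against IL-1β (adjusted p = 2e-06) and 0.64 ± 0.07 for co-culture against control (adjusted p = 4.77e-05).

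Both C/EBP genes changed by less than the genes of the secreted proteins in each contrast, with Cp the nearest to them. The C/EBP genes parted in co-culture. Cebpb was at 171, 179 and 157 FPKM in co-culture, 247, 224 and 210.1 FPKM with IL-1β and 133, 142 and 139 FPKM in control. Its 3 groups did not overlap, with log2 differences of 0.71 ± 0.06 for IL-1β against control (limma adjusted p = 2.41e-06), -0.42 ± 0.06 for co-culture against IL-1β (adjusted p = 0.000191) and 0.29 ± 0.06 for co-culture against control (adjusted p = 0.00643). Cebpd was at 269, 267 and 241 FPKM in co-culture, 279, 258 and 242 FPKM with IL-1β and 196, 198 and 199 FPKM in control. The co-culture libraries thus lay within or just below the range of the IL-1β libraries, and both groups lay above control. Cebpd was 1.31-fold higher with IL-1β than in control (log2 difference 0.39 ± 0.05, limma adjusted p = 7.52e-05) and 1.31-fold higher in co-culture than in control (0.39 ± 0.05, adjusted p = 0.000362). Between co-culture and IL-1β its log2 difference was -0.003 ± 0.053 (limma adjusted p = 0.972), with a 95% interval of -0.12 to 0.11, or 0.921-fold to 1.08-fold. The test does not show that the levels are the same, but a difference as large as that of Cebpb lies outside the interval.

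**Figure D2:**
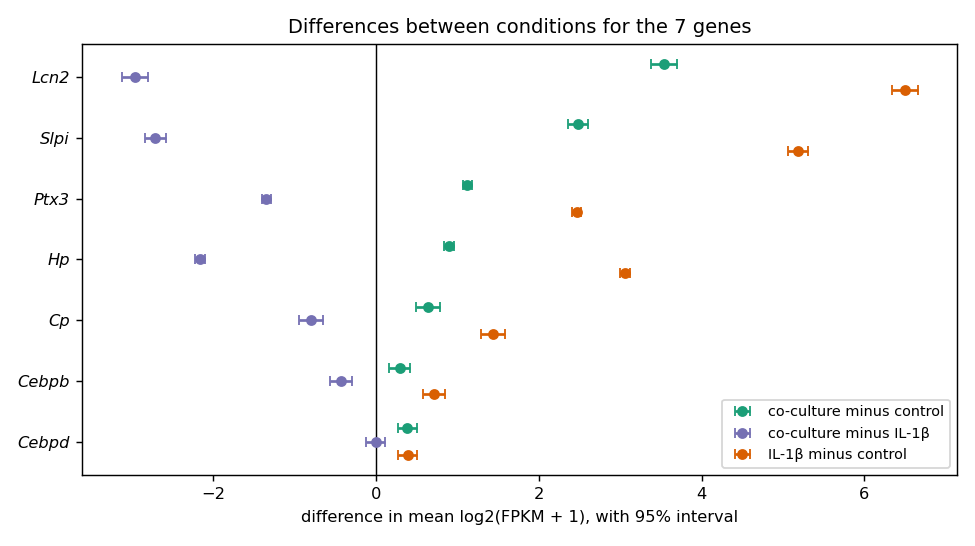
Differences in mean log2(FPKM + 1) for the 7 members with 95% intervals from the fit, for co-culture against control, co-culture against IL-1β and IL-1β against control; the vertical line marks no difference. The points of co-culture against IL-1β lie left of the line for 6 genes and at -0.003 for Cebpd.

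The balance between both factors was compared within each library, where scaling between libraries cancels. This ratio and the others below were chosen after the levels were known. Cebpb over Cebpd was 0.637, 0.67 and 0.65 in co-culture, 0.884, 0.869 and 0.868 with IL-1β and 0.68, 0.714 and 0.696 in control. The IL-1β libraries had the highest ratios and the co-culture libraries the lowest, with no overlap between groups. Hp over Ptx3 behaved likewise, at 0.237 ± 0.006 in co-culture, 0.423 ± 0.0095 with IL-1β and 0.274 ± 0.0029 in control (SD, n = 3 each). Lcn2 over Slpi was 5.98 ± 0.44 in co-culture and 7.06 ± 0.42 with IL-1β, but 2.98 ± 0.26 in control. Over 4 ratios and 3 contrasts, each of the 12 two-sided exact permutation tests gave p = 0.1, the smallest that 3 libraries against 3 allow, and adjusted p = 0.1 as well, so none can pass 0.05.

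**Figure D3:**
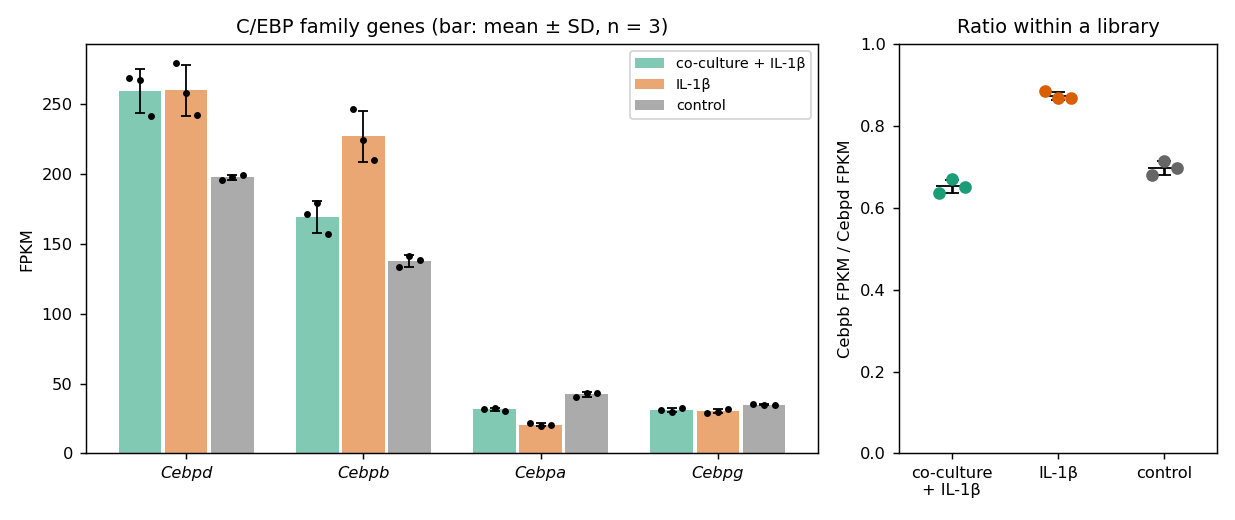
Left, FPKM of 4 C/EBP family genes in co-culture, IL-1β and control, as bars of the mean ± SD with the 3 libraries as points; right, the ratio of Cebpb to Cebpd FPKM in each library with mean ± SD. Cebpd bars of co-culture and IL-1β are level, Cebpa runs opposite to Cebpb, and the ratio is highest in the IL-1β libraries.

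None of the remaining C/EBP genes was called higher with IL-1β. Cebpa, a factor of adipocyte and liver differentiation, fell to 20.5 ± 1.05 FPKM with IL-1β, against 42.4 ± 1.69 FPKM in control (log2 difference -1.01 ± 0.05, limma adjusted p = 5.84e-09), and in co-culture it stood at 31.5 ± 1.19 FPKM, above IL-1β (adjusted p = 1.06e-06) and below control (adjusted p = 7.8e-05). Cebpa over Cebpb was 0.187 ± 0.0057 in co-culture, 0.0907 ± 0.0048 with IL-1β and 0.308 ± 0.0056 in control. Cebpg, named like Cebpe after its values were seen, was at 31 ± 1.35, 30 ± 1.45 and 35 ± 0.537 FPKM in co-culture, IL-1β and control, and its relative Cebpe did not exceed 0.1 FPKM in any library. The 5 C/EBP genes summed to 491 ± 26.4 FPKM in co-culture, 537 ± 36.5 FPKM with IL-1β and 413 ± 6.88 FPKM in control. Within that sum Cebpb made up 34.4%, 42.2% and 33.4% on average and Cebpd 52.8%, 48.3% and 47.9%. Further family and regulator genes tested were Cebpa, Cebpg, Cebpz, the stress factor gene Ddit3, 3 Trib genes and the ligase gene Rfwd2. Of these 8, 4 were lower and none higher with IL-1β than in control (31.2% and 20.5% of all genes). In co-culture 2 were higher and none lower than with IL-1β (33.3% and 16.7% of all genes), or 4 higher after scaling to equal sums. Against control, 4 were lower and none higher in co-culture (7.91% and 12.4% of all genes). Ddit3 was at 34.3 ± 1.8, 28 ± 1.19 and 40.2 ± 2.1 FPKM in co-culture, IL-1β and control, and Trib3 at 9.8 ± 0.707, 8.68 ± 0.865 and 18.6 ± 0.738 FPKM. Rfwd2, whose product directs C/EBP alpha to degradation together with Trib proteins, had 44.5 ± 1.34, 44.6 ± 3.46 and 44.4 ± 1.53 FPKM, differences that did not pass the test.

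The order of the members by level changed between conditions. In control, Cebpd was highest with 198 ± 1.72 FPKM, followed by Cebpb at 138 ± 4.27, Ptx3 at 113 ± 1.14, Lcn2 at 43.1 ± 5.06, Hp at 31.1 ± 0.289, Slpi at 14.4 ± 0.647 and Cp at 4.59 ± 0.339 FPKM, with no overlap between neighbours. With IL-1β the order was Lcn2 at 3963 ± 131, Ptx3 at 631 ± 8.7, Slpi at 562 ± 31.4, Hp at 267 ± 2.35, Cebpd at 260 ± 18.5, Cebpb at 227 ± 18.4 and Cp at 14.2 ± 0.998 FPKM, and the libraries of Hp and Cebpd, and of Cebpd and Cebpb, overlapped. In co-culture Lcn2 stayed first at 509 ± 19.5 FPKM, before Cebpd at 259 ± 15.6 and Ptx3 at 248 ± 1.67 FPKM, whose libraries overlapped. Cebpb followed at 169 ± 11.4, Slpi at 85.4 ± 6.39, Hp at 58.9 ± 1.37 and Cp at 7.73 ± 0.542 FPKM. FPKM corrects for length, but the submitters' processing notes name GRCm38, a mouse build, for these rat cells, which makes levels less reliable between genes than between libraries.

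The 7 members together held 0.181% to 0.193% of a co-culture library's FPKM sum, 0.776% to 0.849% of an IL-1β library's and 0.078% to 0.0797% of a control library's. Within this sum Lcn2 made up 38% to 38.2% in co-culture, 66.4% to 67.3% with IL-1β and 7.23% to 8.79% in control. The share of Cebpb and Cebpd together was 31% to 32.9%, 7.85% to 8.61% and 61.3% to 62.4% in the same order. Factor transcripts thus outweighed the secreted protein transcripts in control, and the secreted protein transcripts outweighed them in both stimulated groups.

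How much of the IL-1β difference was left in co-culture was described as the difference of co-culture from control divided by that of IL-1β from control on the log2(FPKM + 1) scale, with no test, since both terms use the control libraries. The share was 54.5% ± 0.93 for Lcn2, 47.9% ± 0.95 for Slpi, 45.5% ± 0.88 for Ptx3, 44.6% ± 4.1 for Cp and 29.4% ± 0.82 for Hp (standard errors from the fit). Among the 312 genes raised by at least 1 on the log2 scale, the median share was 27.1%, with quartiles of 16.9% and 36.5%. Only 7 of these genes kept a larger share than Lcn2, whereas 133 kept a larger share than Hp. Cebpb kept 40.9% ± 7.4, and Cebpd, with a small difference to begin with, 99.3% ± 13. On the linear FPKM scale the shares were lower for the strongly raised genes, at 11.9% for Lcn2, 13% for Slpi and 11.8% for Hp, against 26% for Ptx3 and 32.7% for Cp, so the order among the members depends on the scale.

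**Figure D4:**
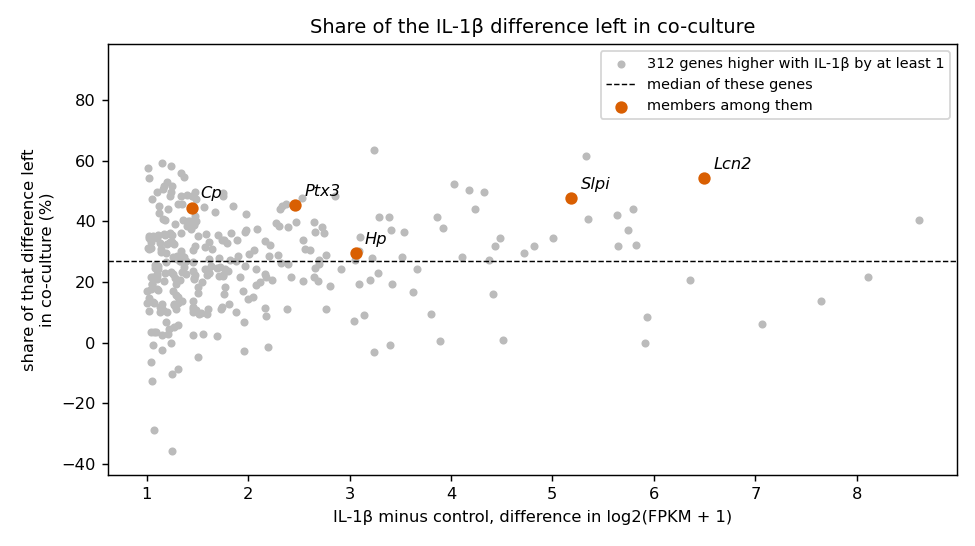
Share of the IL-1β difference left in co-culture (%) against the size of that difference (log2 scale) for the 312 genes raised by at least 1; orange points are the 5 members among them and the dashed line is the median of 27.1%. Lcn2, Slpi, Ptx3 and Cp lie between 44.6% and 54.5%, and Hp lies near the median.

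Promoter windows were searched because C/EBP and NF-kB factors are known to act on acute phase genes. Only windows with a match are printed. RefSeq windows of assembly GRCr8, from 250 bases before to 50 bases after the annotated start, were matched by gene identifier for 4 members, Lcn2, Ptx3, Cp and Cebpb, and not for Slpi, Hp and Cebpd. Both strands were searched for a C/EBP motif, TTGCNNAA (TTNNGCAA on the other strand), and for an NF-kB motif, GGGA and TCC with any 3 bases between them, and capitals mark the matches. Windows lie at chr3:36081731-36082030 on the minus strand for Lcn2, chr2:152797313-152797612 on the plus strand for Ptx3 and chr2:104368420-104368719 on the plus strand for Cp.
Lcn2: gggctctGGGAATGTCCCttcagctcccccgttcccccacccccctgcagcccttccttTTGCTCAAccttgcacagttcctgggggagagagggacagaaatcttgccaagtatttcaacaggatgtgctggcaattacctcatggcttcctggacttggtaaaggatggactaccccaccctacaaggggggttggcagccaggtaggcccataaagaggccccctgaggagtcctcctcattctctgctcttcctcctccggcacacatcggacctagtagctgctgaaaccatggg
Ptx3: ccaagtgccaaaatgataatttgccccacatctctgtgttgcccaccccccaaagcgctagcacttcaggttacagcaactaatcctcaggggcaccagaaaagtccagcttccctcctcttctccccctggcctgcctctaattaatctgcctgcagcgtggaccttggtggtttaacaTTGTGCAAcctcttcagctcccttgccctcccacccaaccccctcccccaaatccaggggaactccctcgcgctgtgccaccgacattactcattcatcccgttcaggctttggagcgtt
Cp: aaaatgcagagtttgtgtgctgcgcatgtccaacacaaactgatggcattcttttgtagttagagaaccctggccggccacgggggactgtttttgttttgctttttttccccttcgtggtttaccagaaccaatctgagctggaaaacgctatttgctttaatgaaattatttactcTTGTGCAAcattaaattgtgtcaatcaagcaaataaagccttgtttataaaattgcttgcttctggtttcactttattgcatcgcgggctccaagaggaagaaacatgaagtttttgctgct
Lcn2 had TTGCTCAA from 191 to 184 bases before the start, and a stretch from 243 to 233 bases before it in which GGGAATGTCC and, in the other orientation, GGAATGTCCC overlapped. Ptx3 had TTGTGCAA from 70 to 63 bases before the start, and Cp the same letters from 72 to 65 bases before it. The Cebpb window, at 81% GC, held neither motif and is not printed. The C/EBP motif occurred in 10.6% and the NF-kB motif in 4.09% of all 33469 windows. A match describes the letters in this window only and does not show binding.

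Other acute phase protein genes followed the members. Of 31 listed genes, 23 were in the table and 15 reached 1 FPKM on average. With IL-1β 13 of the 15 were higher than in control and 1 lower (20.5% and 31.2% of all genes). The median log2 difference was 1.02, against -0.04 for all genes. In co-culture 13 were lower than with IL-1β and 1 higher (16.7% and 33.3% of all genes). Against control, 12 were higher in co-culture and none lower (12.4% and 7.91% of all genes). The medians were -0.6 and 0.46, against 0.06 and 0.02 for all genes. The complement gene C3 was at 63.7 ± 1.21 FPKM in co-culture, 266 ± 10.8 FPKM with IL-1β and 5.65 ± 0.439 FPKM in control. Lbp, which encodes the lipopolysaccharide binding protein, had 154 ± 4.63, 620 ± 3.7 and 94.7 ± 1.22 FPKM in these groups. The metallothionein genes Mt2A and Mt1, whose products bind zinc and copper, were abundant throughout. Mt2A stood at 2740 ± 82.6 FPKM in co-culture, 4162 ± 134 FPKM with IL-1β and 1746 ± 28.2 FPKM in control, and Mt1 at 1242 ± 41.6, 1722 ± 66.1 and 903.3 ± 32.2 FPKM; the family members are near-identical, and the counting of shared reads is not given in the sources used here. Further genes of this group are named after their values were seen. Hpx, which encodes the haem carrier hemopexin, was 34.4-fold higher with IL-1β than in control (49.8 ± 3.27 against 1.45 ± 0.192 FPKM) and at 4.61 ± 0.255 FPKM in co-culture. Orm1, the gene of an acute phase glycoprotein, was 29-fold higher with IL-1β (19.6 ± 0.977 against 0.677 ± 0.189 FPKM) and at 1.55 ± 0.118 FPKM in co-culture. Agt, the angiotensinogen gene, was the 1 that fell with IL-1β, to 0.93 ± 0.125 FPKM against 2.71 ± 0.0586 FPKM in control. Timp1, an inhibitor of metalloproteinases, did not pass between co-culture and IL-1β, at 613 ± 33.7 and 650.2 ± 10 FPKM (limma adjusted p = 0.082, but 0.00621 after median-of-ratios scaling). Liver-type genes of the list, such as Serpina1 and Fgb, did not reach 1 FPKM. Of 8 genes known to fall in the hepatic acute phase, 7 were in the table and only Rbp4, a retinol carrier gene, was tested; it was at 34.7 ± 1.14 FPKM in co-culture, 29.9 ± 3.08 FPKM with IL-1β and 40.4 ± 2.92 FPKM in control, lower with IL-1β than in control (adjusted p = 0.000369).

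**Figure D5:**
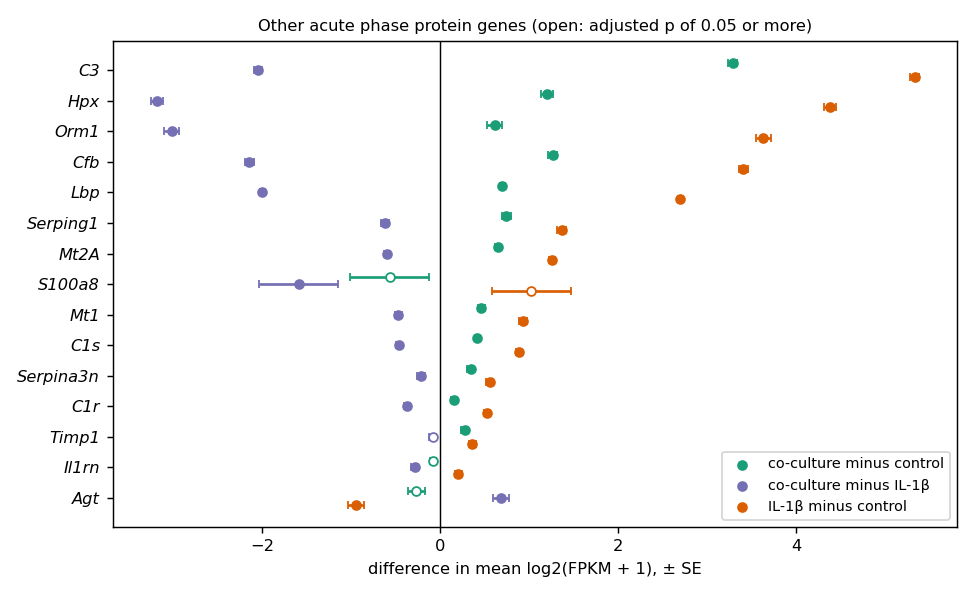
Differences in mean log2(FPKM + 1) ± SE for the 15 tested genes of the further acute phase list, for co-culture against control, co-culture against IL-1β and IL-1β against control; filled points passed the adjusted p of 0.05 and open points did not. C3, Hpx, Orm1, Cfb and Lbp lie farthest right with IL-1β, and Agt lies on the other side.

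Genes of IL-1 and IL-6 signalling were called in both directions, and whether they act before the members here was not tested. Of 22 tested, 15 were higher and 5 lower with IL-1β than in control (20.5% and 31.2% of all genes). In co-culture 14 were lower and 5 higher than with IL-1β (16.7% and 33.3% of all genes). Against control, 11 were higher and 2 lower in co-culture (12.4% and 7.91% of all genes). The median log2 differences were 0.575, -0.32 and 0.194, against -0.04, 0.06 and 0.02 for all genes. Il6, the main inducer of hepatic acute phase genes, was at 106 ± 2.7, 1069 ± 42.3 and 39.5 ± 2.66 FPKM in co-culture, IL-1β and control. Il11, a related cytokine, was at 2.01 ± 0.226, 129.7 ± 1.12 and 1.14 ± 0.101 FPKM in these groups. Il6st, the shared receptor subunit gp130, was at 193 ± 3.01 FPKM in co-culture, 246 ± 5.05 FPKM with IL-1β and 168 ± 3.5 FPKM in control. Named after their values were seen, Nfkbiz, which encodes the NF-kB cofactor known to be needed for Lcn2 induction in mouse macrophages, had 39 ± 0.679, 95.8 ± 3.64 and 29 ± 0.449 FPKM, and Stat3, the transcription factor downstream of gp130, had 70.7 ± 1.64, 64.3 ± 0.794 and 77.1 ± 2.06 FPKM. Of 16 tested inflammatory genes often placed downstream of C/EBP factors or this cofactor, 16 were higher with IL-1β than in control. In co-culture 16 were lower than with IL-1β and 13 higher than in control. The shares of all genes in these directions were 20.5%, 16.7% and 12.4%. Median log2 differences of the 16 were 4.5, -3.3 and 1.47. This list also holds Il6 and was written with earlier results of these data known, so its counts say nothing particular about targets of these factors. The chemokine gene Ccl2 was at 2127 ± 46, 6820 ± 202 and 1172 ± 15.4 FPKM, the chemokine gene Cxcl1 at 752.5 ± 11.3, 5794 ± 222 and 335.5 ± 20.2 FPKM, and the stromelysin gene Mmp3 at 844 ± 5.54, 3556 ± 35.3 and 196 ± 4.1 FPKM in co-culture, IL-1β and control. Mmp9 had 17 ± 1.07, 621 ± 8.1 and 0.59 ± 0.0346 FPKM.

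Iron handling is the process that lipocalin 2, ceruloplasmin and haptoglobin share. Of 18 other genes tested, 9 were higher and 6 lower with IL-1β than in control (20.5% and 31.2% of all genes), 9 lower and 7 higher in co-culture than with IL-1β (16.7% and 33.3% of all genes), and 6 higher and 4 lower in co-culture than in control (12.4% and 7.91% of all genes). Their median log2 differences were 0.08, -0.1 and -0.04, against -0.04, 0.06 and 0.02 for all genes. The iron importer gene Slc11a2 was at 43 ± 0.375 FPKM in co-culture, 114 ± 0.431 FPKM with IL-1β and 31.7 ± 0.397 FPKM in control, and the metalloreductase gene Steap2 at 73.7 ± 1.6, 146 ± 2.01 and 56.6 ± 0.93 FPKM. The ferritin subunits went opposite ways with IL-1β. Ftl1, the light chain, fell to 2131 ± 26.1 FPKM against 3701 ± 52.4 FPKM in control, and was at 3145 ± 64.7 FPKM in co-culture. Fth1, the heavy chain, rose to 2174 ± 82 FPKM against 1799 ± 65.7 FPKM in control (limma adjusted p = 7.46e-05), and was at 1728 ± 23.5 FPKM in co-culture, not past the threshold against control (limma adjusted p = 0.309). Of 3 other scalings it passed after scaling to equal sums (adjusted p = 0.0287) and quantile normalization (0.0356), and not after median-of-ratios scaling (0.159). Slc22a17, which encodes a lipocalin 2 receptor and is named after its values were seen, was at 6.88 ± 0.529, 6.41 ± 0.964 and 7.4 ± 0.702 FPKM, and no contrast passed. Under the same 3 scalings, IL-1β against control passed after scaling to equal sums (limma adjusted p = 0.0367).

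The lists set beside Ptx3, Slpi and Lcn2 held genes called in both directions in each contrast. Of all genes, 20.5% were higher and 31.2% lower with IL-1β than in control. In co-culture 16.7% were lower and 33.3% higher than with IL-1β, and 12.4% higher and 7.91% lower than in control. The median log2 differences of all genes were -0.04, 0.06 and 0.02. Of 8 tested pentraxin and hyaluronan matrix genes, 4 were higher and 4 lower with IL-1β than in control, 4 higher and 3 lower in co-culture than with IL-1β, and 4 higher and 1 lower in co-culture than in control. The last count became 2 higher and 1 lower without control replicate 1, without co-culture replicate 3 or after quantile normalization. The median log2 differences in these contrasts were 0.09, -0.01 and 0.13. Tnfaip6, whose product TSG-6 binds PTX3 in hyaluronan matrix, was at 42.8 ± 1.09 FPKM in co-culture, 80.2 ± 3.18 FPKM with IL-1β and 28.1 ± 2.86 FPKM in control. The link protein gene Hapln1 had 5.58 ± 0.196, 1.72 ± 0.346 and 8.54 ± 0.142 FPKM in these groups, and the proteoglycan gene Vcan 232.5 ± 5.94, 313 ± 9.5 and 212.5 ± 5.32 FPKM. A further list held 13 tested genes of the WFDC family, to which Slpi belongs, and of the separate serpin, cystatin and TIMP families. Of these, 5 were higher and 3 lower with IL-1β, and 5 lower and 3 higher in co-culture than with IL-1β. Against control, 1 was higher and 5 were lower in co-culture, where 12.4% of all genes were higher and 7.91% lower. Their median log2 differences were 0.03, -0.13 and -0.1. Serpine2, an inhibitor of thrombin and plasminogen activators, was at 463 ± 5.17, 736 ± 9.1 and 499 ± 5.48 FPKM in co-culture, IL-1β and control. Serpinh1, a collagen chaperone gene, had 1417 ± 0.649, 995.5 ± 35 and 1564 ± 20.2 FPKM. Wfdc21, named after its values were seen, was 15.9-fold higher with IL-1β than in control (50.4 ± 3.53 against 3.16 ± 1.11 FPKM) and at 6.68 ± 1.97 FPKM in co-culture. Of 6 other lipocalin-family and antimicrobial genes, 2 were higher and 3 lower with IL-1β, 3 lower and 2 higher in co-culture than with IL-1β, and 2 in each direction in co-culture against control, or 1 in each without co-culture replicate 1. Their median log2 differences were -0.18, -0.06 and -0.17. Camp, the cathelicidin gene, was at 1.69 ± 0.478 FPKM in co-culture, 14.4 ± 1.87 FPKM with IL-1β and 0.583 ± 0.195 FPKM in control. The retinoic acid binding protein gene Crabp2 had 5.97 ± 0.93, 1.43 ± 0.486 and 9.58 ± 0.645 FPKM and its relative Crabp1 22.9 ± 2.15, 15.7 ± 1 and 28 ± 5.31 FPKM. The fatty acid binding protein gene Fabp5 was at 572 ± 15.2, 606 ± 7.99 and 601.6 ± 15 FPKM.

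The genes most like each member were named by the correlation of log2(FPKM + 1) over the 9 libraries, a description that mostly reflects the 3 group means. For Lcn2 they were Bst1 (r = 0.9987), Mmp3 (0.9984) and Mmp10 (0.9979), and for Slpi Nov (0.9996), Sfrp2 (0.9991) and Mmp3 (0.9989). Ptx3 was closest to Cxcl12 (0.9997), Nov (0.9996) and Cxcl6 (0.9993). Hp was closest to Nfkb1 (0.9996), Il6 (0.9995) and Cxcl1 (0.9995), and Cp to Grem1 (0.9955), Igsf10 (0.9955) and Prrx1 (0.9954). A value of at least 0.99 was reached with Hp by 217 genes, with Ptx3 by 103, with Slpi by 72, with Lcn2 by 46 and with Cp by 44. Cebpb had 1 such gene, the MHC class I gene RT1-A2 (0.9951), before Ppp1r18 (0.9893) and Eva1a (0.9883). Cebpd had none, and its nearest genes were Ucp2 (0.989), Pim3 (0.9761) and Rtn3 (0.9753). Ucp2 averaged 9.64 FPKM in co-culture, 9.61 FPKM with IL-1β and 7.39 FPKM in control.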

How the data were processed

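Polyadenylated RNA of 9 rat synovial fibroblast libraries was analysed from the table the authors deposited. Its values are FPKM per gene, per the file headers, with 2 decimals and 1 column per library; no aligner, counter or annotation is named in the labels. GRCm38, a mouse build, is named by the submitters' processing notes, although 16152 of the 17298 identifiers (93.4%) are rat RefSeq genes; no coordinates were taken from the table. Of 492 low values, 33.1% lay within 0.1 of a whole multiple of the gene's lowest value (evenly spread values give 20%), so whole reads were not recovered and depth is unknown.

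Groups were taken from the titles. Genes with a mean of at least 1 FPKM were fitted as log2(FPKM + 1) by group in all 9 libraries (limma 3.58.1, R 4.3.3), with trend and robust settings in the moderation; p-values were two-sided and adjusted over 11372 genes, and the fit was tested on simulated data. Fold values are ratios of mean FPKM. Ratios used exact permutation tests (scipy 1.17.1 in Python 3.11.15). No member had values identical to another gene. Members and gene lists were chosen with earlier results of these data known, so no test over a list was made. Genes named besides the members were, from each list, the 2 with the smallest p for IL-1β against control and the 2 with the highest mean FPKM, and the 3 genes most correlated with each member; exceptions are marked, and 1 gene so chosen is not reported here. Alternatives were other pseudocounts, filters, scalings, samples in the fit, moderation, a replicate block and leaving out each library.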

Additional observations from a re-analysis of the deposited data

How the results depend on the processing

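Under 18 alternatives to the fit, all 7 members stayed higher with IL-1β than in control and higher in co-culture than in control, and 6 stayed lower in co-culture than with IL-1β, each past the threshold. Exceptions concern Cebpd between co-culture and IL-1β, which never passed (adjusted p 0.337 to 1): its log2 difference of -0.003 turned to 0.031 after scaling to equal sums, 0.033 after quantile normalization, 0.0501 without IL-1β replicate 1 and 0.0481 without co-culture replicate 3, reached -0.0685 after median-of-ratios scaling, and ranged from -0.0518 to 0.0501 when 1 library was left out. The cause was not tested. The largest adjusted p of a member call was 0.0389, for Cebpb in co-culture against control. Leaving out 1 library moved the log2 difference of IL-1β from control between 6.42 and 6.58 for Lcn2 and between 0.34 and 0.44 for Cebpd.

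The share of higher genes among all calls depended on the scaling: 39.7% with IL-1β, but 50.1% after median-of-ratios scaling and 23.7% after scaling to equal sums, 66.6% in co-culture against IL-1β, but 50.8% and 73.2%, and 61% in co-culture against control, but 51.6%, 33.9% and 46.4% after quantile normalization. Of 756 counts of list members under the alternatives, 35 moved by more than 1.5 times, 29 of them in lists of 1 to 3 tested genes; of 8 pentraxin and matrix genes, 8 passed with IL-1β, or 5 with a mean of at least 5 FPKM required.

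Whether replicate numbers pair the libraries is not settled by these values. Of 9 correlations between same-numbered libraries of different groups, 1 exceeded 0.1 (median 0.0862, range -0.046 to 0.189). Of 18 between other-numbered libraries, 1 exceeded 0.1 as well (median -0.00746, range -0.221 to 0.133). With the replicate block, 5858, 5708 and 2227 genes passed in the 3 contrasts, against 5874, 5687 and 2307 without it, and the members' counts were 7, 6 and 7 as before. Depth is unknown, so counting error cannot be given for Cp or any other low gene.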
